A study of Mus musculus with 24 samples.

Results

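Immune checkpoint ligands and receptors are represented here by 10 genes, Havcr2, Lgals9, Cd274, Pdcd1lg2, Cd80, Cd86, Cd276, Pvr, Cd200 and Cd72, which were followed across 7 mouse tumour cell lines on one-colour expression arrays. The genes were chosen by name, and a probe was assigned to a gene through its RefSeq transcript. All 10 genes were on the array, with 17 of the 56488 probes used, and they are 10 of the 45547 gene and transcript names measured. Values are normalized log2 signals, which are the log2 of the background-corrected intensity of a probe less the 75th percentile of its array, so that 0 is the level of a fairly bright probe and a step of 1 is a doubling.

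The study asked how dormant tumour cells that persist after immunotherapy differ from their parental cells. The 5 melanoma lines were B16F1-GFP-M (M, 3 arrays), B16F1-GFP-D (D, 4 arrays), B16F1-GFP-DB#1 (DB#1, 4 arrays), B16F1-GFP-DB#2 (DB#2, 3 arrays) and B16F1-GFP-DB#3 (DB#3, 3 arrays), all derived from the mouse melanoma B16F1 and carrying green fluorescent protein. According to the methods of the study, M is the parental line, D was recovered from mice after long dormancy under vaccination with irradiated cells that overexpressed GM-CSF, and the DB lines come from a second round in mice, with tumour cells taken from the brain. The other 2 lines, M0 (4 arrays) and J365 (3 arrays), are labelled as myeloid cells, and which of the leukemia lines of the study they are is not stated. Their array titles also carry the tag p20, which the melanoma titles lack and which the titles do not explain. All cells were grown and amplified in culture without host tissue before RNA was extracted, and the DB lines are 3 separate lines rather than replicates of 1 line. Nothing in the labels says that the arrays of a line came from separate cultures, so the p-values below measure only the spread between these arrays. The number of arrays per line limited the precision.

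The arrays lay on 3 slides of 8, and every slide held all 7 lines. D replicate 1 had the lowest share of probes well above background (43.6%), D replicate 3 had 89.9%, and no other array exceeded 53.8%. These 2 arrays stood apart, and calls in D that changed without them are named beside the result. All 10 melanocyte markers were read on every melanoma array, with a mean between 5.94 and 7.01, against -4.25 to -3.95 on the myeloid arrays. The 10 leukocyte markers averaged between 2.25 and 3.09 on the myeloid arrays and between -5.51 and -2.94 on the melanoma arrays, and Ptprc, the gene for the pan-leukocyte antigen CD45, was above background on 0 of the melanoma arrays and on all the myeloid ones. These marker sets separated the melanoma lines from lines of leukocyte type, and neither set is particular to myeloid cells. On the myeloid arrays, 4 to 6 of 10 macrophage and dendritic markers were above background. The same held for 5 to 9 of 10 mast cell and basophil markers and for 7 to 8 of 10 T cell markers. On the melanoma arrays 6 to 10 of the T cell markers were above background, with 10 on D replicate 3.

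Immune checkpoints are pairs of ligands and receptors that restrain or, in a few cases, stimulate immune cells. Tumour cells and antigen-presenting cells carry the ligands, and T cells, NK cells and myeloid cells carry most of the receptors. Cd274 and Pdcd1lg2 encode PD-L1 and PD-L2, the ligands of the inhibitory receptor PD-1, and Cd274 is a classical target gene of interferon gamma. Cd80 and Cd86 encode the ligands shared by CD28, which stimulates T cells, and CTLA-4, which restrains them, while Cd276 encodes B7-H3, another member of the B7 family. Havcr2 encodes the receptor TIM-3, and Lgals9 encodes galectin-9, a secreted lectin described as a TIM-3 ligand. Pvr encodes CD155, which is bound by TIGIT, CD96 and CD226, Cd200 encodes a ligand of inhibitory receptors on myeloid cells, and Cd72 encodes an inhibitory C-type lectin best known from B cells.

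The RefSeq promoter sequences of 8 of the 10 genes were matched in assembly GRCm38.p6. The 250 bases before the start site are shown for Lgals9, Cd274, Havcr2 and Cd72, because these 4 genes differed between melanoma lines. Each is written in the direction of the gene. Capitals mark a match, read on either strand, to GAAA followed by any 2 bases and a second GAAA, the core of the interferon-stimulated response element found in many interferon target genes. The sequences come from chr11:78984925-78985174 (minus strand) for Lgals9, chr19:29367188-29367437 (plus strand) for Cd274, chr11:46454681-46454930 (plus strand) for Havcr2 and chr4:43454627-43454876 (minus strand) for Cd72.
Lgals9: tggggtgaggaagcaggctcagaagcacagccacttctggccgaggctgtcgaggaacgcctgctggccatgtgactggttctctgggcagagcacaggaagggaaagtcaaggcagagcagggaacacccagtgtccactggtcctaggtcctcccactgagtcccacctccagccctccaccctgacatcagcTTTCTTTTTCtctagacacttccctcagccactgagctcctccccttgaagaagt
Cd274: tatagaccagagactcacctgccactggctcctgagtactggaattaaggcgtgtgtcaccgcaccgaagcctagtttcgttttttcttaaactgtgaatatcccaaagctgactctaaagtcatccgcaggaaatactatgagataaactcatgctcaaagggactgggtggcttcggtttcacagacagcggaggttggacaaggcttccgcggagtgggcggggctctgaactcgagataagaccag
Havcr2: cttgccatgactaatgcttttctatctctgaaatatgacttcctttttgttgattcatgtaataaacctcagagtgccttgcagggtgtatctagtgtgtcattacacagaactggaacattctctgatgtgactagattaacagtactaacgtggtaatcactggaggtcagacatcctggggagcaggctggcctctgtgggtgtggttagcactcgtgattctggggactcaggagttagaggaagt
Cd72: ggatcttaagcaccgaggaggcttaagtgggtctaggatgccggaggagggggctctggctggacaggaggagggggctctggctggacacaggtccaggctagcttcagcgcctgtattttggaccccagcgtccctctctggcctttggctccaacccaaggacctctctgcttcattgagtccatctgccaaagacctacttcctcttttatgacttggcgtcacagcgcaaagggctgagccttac
The element occurred in 2.98% of 32851 promoters of this length and, of the 8 promoters of these genes, in 1, that of Lgals9, where its first base was at position -55 from the start site. The gamma-activated site TTCNNNGAA was also sought on both strands and occurred in 7.02% of promoters and in 0 of the 8. These matches describe letters in a window and do not show that a factor binds.

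Cd274, Cd72, Cd80, Havcr2, Lgals9 and Pvr, which are 6 of the 10 genes, were well above background on all 24 arrays. Cd276 was read on 22 arrays, 17 of 17 in melanoma and 5 of 7 in the myeloid lines. Pdcd1lg2 was read on 8 arrays, which were the 7 myeloid arrays and D replicate 3. Cd86 was read on 2 arrays, M replicate 1 and D replicate 3, and Cd200 on 1 array, D replicate 3. Neither Cd86 nor Cd200 was well above background on every array of any line, so neither was tested. Pdcd1 and Ctla4, the genes of the receptors PD-1 and CTLA-4, were above background on 1 melanoma array each, an array of D, and on no myeloid array.

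**Figure D1:**
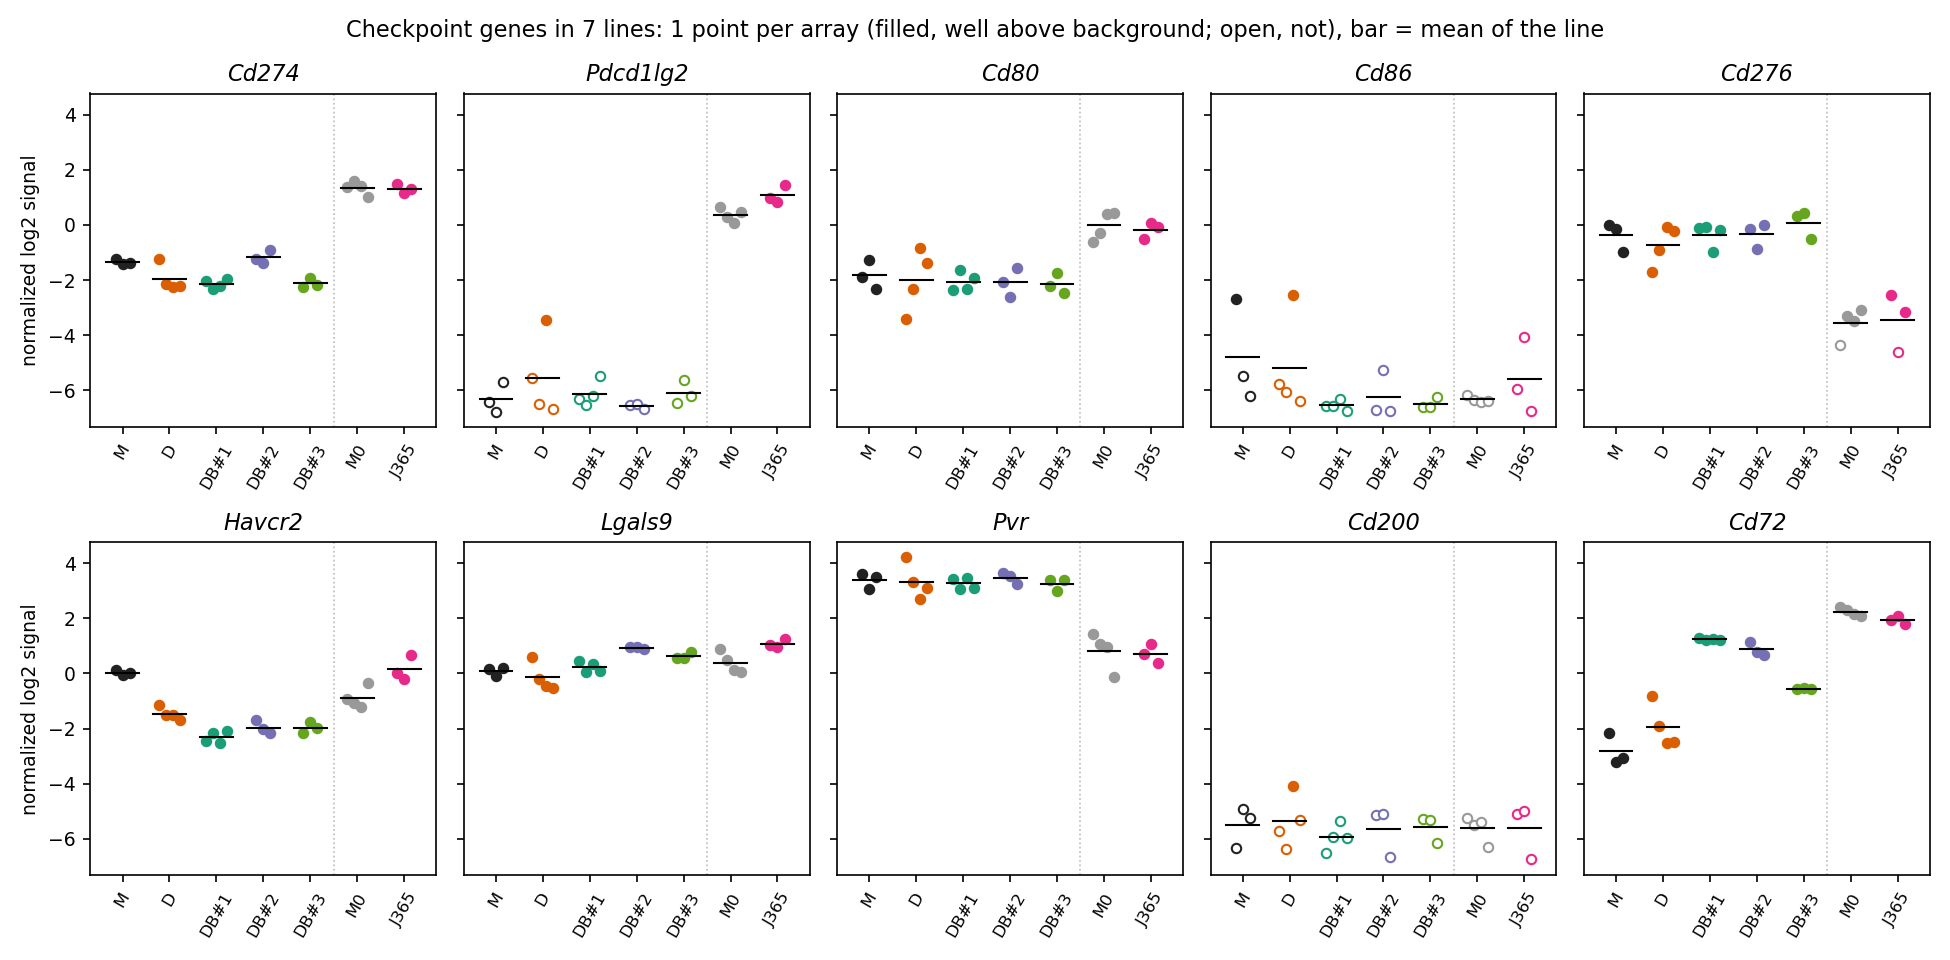
Normalized log2 signal (vertical axis) of the 10 checkpoint genes in the 7 lines (horizontal axis), with 1 point per array, filled where the probe was well above background, and a bar at the mean of the line. The dotted line separates melanoma from myeloid lines. Havcr2 lies near 0 in M and between -2.53 and -1.14 in the other melanoma lines, Cd72 climbs from M to DB#1, and Pdcd1lg2, Cd86 and Cd200 are mostly open points near the bottom in melanoma.

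The comparison with the most calls was between the tumour types, M0 against M. Of the 8 members tested 7 were called, that is, they had an adjusted p under 0.05 in limma's moderated test with Benjamini-Hochberg adjustment over all genes tested. In this comparison 58.5% of the 22426 genes tested were called, so the share among the members stood on a broad background. Higher in the myeloid line were 4 of them, where 30.8% of genes were called higher. Pdcd1lg2 lay between 0.08 and 0.64 on the 4 M0 arrays and was not well above background on any M array, which made it at least 25.3-fold higher (adjusted p = 4.21e-10). Cd72 was higher by 5.04 ± 0.30 log2 units (SE), Cd274 by 2.69 ± 0.21 and Cd80 by 1.82 ± 0.45. Lower in M0 were 3 of them, where 27.7% of genes were called lower. Cd276 fell by 3.19 log2 units, Pvr by 2.56 and Havcr2 by 0.92. Lgals9 was not called, with a difference of 0.29 and a 95% confidence interval from -0.18 to 0.76. Across all 24 arrays the melanoma and myeloid ranges did not overlap for Cd274 (-2.33 to -0.90 against 1.02 to 1.58), Pdcd1lg2 (-6.78 to -3.47 against 0.08 to 1.45), Cd276 (-1.72 to 0.43 against -4.62 to -2.55), Pvr (2.70 to 4.22 against -0.12 to 1.44), Cd80 (-3.40 to -0.85 against -0.61 to 0.44) and Cd72 (-3.20 to 1.28 against 1.79 to 2.42). Between M0 and M alone, the arrays did not overlap for 57.8% of all genes tested. Signals of different probes cannot be ranked against each other as transcript levels. M and M0 differ in tissue of origin as well as in every other property of the lines.

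Havcr2, the gene for TIM-3, was lower in every melanoma line other than M. In M its signal was 0.11, -0.06 and 0.02. The 4 D arrays read -1.14, -1.51, -1.49 and -1.70. The DB#1 arrays read -2.46, -2.15, -2.53 and -2.10, those of DB#2 -1.70, -2.03 and -2.17, and those of DB#3 -2.17, -1.78 and -1.98. The 3 M arrays were above all 14 others, and the mean of D lay between M and the DB lines. Among all genes tested, 8.43% did not overlap between D and M, and 19.9% to 21.5% between a DB line and M. In D minus M the difference was -1.49 ± 0.22 (adjusted p = 1.92e-04), a 2.80-fold lower signal, and Havcr2 was the only member called of 7 tested, where 2.97% of 20145 genes were called. It was 5.05-fold lower in DB#1 (-2.34 ± 0.22, adjusted p = 2.78e-07), 3.98-fold lower in DB#2 (-1.99 ± 0.23, adjusted p = 8.49e-06) and 4.0-fold lower in DB#3 (-2.0 ± 0.23, adjusted p = 8.14e-06). These 4 comparisons share the M arrays. In each of them the difference had the same direction on all 3 slides, and in D minus M it was -1.35, -1.44 and -1.81 within the slides. Among all genes tested, ordered by fall, Havcr2 ranked 75 in D, 49 in DB#1, 52 in DB#2 and 64 in DB#3. In bulk RNA, fewer cells that carry a transcript and less of it per cell cannot be told apart.

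Between D and the DB lines none of the Havcr2 differences was called. They were -0.85 ± 0.20 in DB#1 minus D (adjusted p = 0.0743), -0.51 in DB#2 minus D and -0.51 in DB#3 minus D. The first was called without M0 replicate 4 (adjusted p = 0.0305) and without J365 replicate 4 (adjusted p = 0.0349), arrays that enter the fit only through the common spread, and with the percentile taken over detected probes (adjusted p = 0.0449). Of the 8 genes nearest to Havcr2 on its chromosome only Med7 could be tested, and it differed from M by -0.01 to 0.19 in the 4 lines and was not called. This set of neighbours was picked after values were seen.

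TIM-3 is a receptor of immune cells as well as of some tumour cells, so leukocyte genes were read beside it. Coro1a, which encodes an actin-binding protein of leukocytes, was also lower than in M in DB#1 (-1.70, adjusted p = 0.0211) and DB#3 (-1.67, adjusted p = 0.0476). In DB#2 its -0.61 was not called (adjusted p = 0.743). Its D arrays were uneven, at -4.45 on replicate 1, where it was not above background, and -3.25, -1.30 and -3.05 on the others, against -1.56 to -1.36 in M. The difference of -1.55 (adjusted p = 0.0464) was lost without D replicate 1 (-1.07, adjusted p = 0.0818). Without D replicate 3 it was -2.12 (adjusted p = 4.93e-05), and without D replicates 1 and 3 together -1.69 (adjusted p = 3.17e-05). Lcp1, which encodes the actin bundler L-plastin, was lower than in M in DB#1 (-2.45) and DB#2 (-2.82), and in D its -1.24 was not called (adjusted p = 0.207) other than without D replicate 1 (-1.83, adjusted p = 0.00138) or without D replicates 1 and 3 together. In DB#3 its -1.67 was not called either (adjusted p = 0.0816). Itgb2, another of the 10 leukocyte markers, differed from M by 0.37 in DB#2 and 0.52 in DB#3 and was not called. It was not tested in D or DB#1. The 10 leukocyte markers had a summed linear level, relative to the 75th percentile, of 1.49 to 2.30 on the M arrays, 0.583 to 2.67 in D, 0.460 to 0.604 in DB#1, 0.505 to 0.814 in DB#2, 0.552 to 1.52 in DB#3 and 167 to 250 in the myeloid lines. Between 2 and 4 of the 10 were above background on an M array. The defining markers Ptprc and Vav1 were above background on 0 melanoma arrays, and Laptm5 on 1, D replicate 3. The part of these genes in the fall of Havcr2 was not tested.

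Lgals9, the galectin-9 gene, did not follow Havcr2. Its signal was 0.16, -0.08 and 0.20 in M, 0.61, -0.18, -0.47 and -0.52 in D, 0.47, 0.07, 0.36 and 0.10 in DB#1, 0.95, 0.96 and 0.89 in DB#2, and 0.57, 0.55 and 0.77 in DB#3. DB#2 had the highest values of the melanoma lines and did not overlap with any other melanoma line. Among all genes tested, DB#2 did not overlap for 21.5% against M and 12.6% against D. Against DB#1 and DB#3 the shares were 23% and 25.9%. The difference was called in DB#2 minus D, at 1.07 ± 0.22 or 2.11-fold higher (adjusted p = 0.00459), and was lost in a fit of only the arrays compared (adjusted p = 0.178). Against M it was 0.84 ± 0.24 (adjusted p = 0.0631) and against DB#1 0.68 ± 0.23 (adjusted p = 0.0904), and both passed the threshold with slide as a block (adjusted p = 0.0245 and 0.0455). Without D replicate 1, which enters both fits only through the common spread, the adjusted p was 0.00875 against M and 0.0179 against DB#1. The DB#2 minus M difference also passed without D replicate 3 (adjusted p = 0.0454) and without M0 replicate 1 (adjusted p = 0.0402). Lgals9 in DB#3 minus D was 0.77 (adjusted p = 0.269) and reached 1.02 (adjusted p = 0.0103) without D replicate 1.

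Cd72 had the largest called rise among the members in the melanoma comparisons. Its signal was -2.16, -3.20 and -3.05 in M, and -0.81, -1.92, -2.54 and -2.48 in D. It was 1.28, 1.21, 1.27 and 1.21 in DB#1, 1.15, 0.79 and 0.67 in DB#2, and -0.58, -0.52 and -0.57 in DB#3. Every DB array was above every M and D array, the 3 DB lines did not overlap with each other, and M and D overlapped. Among all genes tested, 19.9% to 21.5% did not overlap between a DB line and M, and 2.54% to 12.6% between a DB line and D. Between DB lines the share was 5.72% to 25.9%. Against M, Cd72 was 16.5-fold higher in DB#1 (4.05 ± 0.30, adjusted p = 9.86e-09), 12.8-fold higher in DB#2 (3.68 ± 0.32, adjusted p = 1.74e-07) and 4.76-fold higher in DB#3 (2.25 ± 0.32, adjusted p = 1.19e-04). The second Cd72 probe gave 4.04, 3.74 and 2.33 for the same differences. Among all genes tested, ordered by rise, it ranked 35 in DB#1, 47 in DB#2 and 115 in DB#3. The DB#3 difference was lost under quantile normalization (adjusted p = 0.0760). In D minus M the difference was 0.87 ± 0.30 and was not called (adjusted p = 0.160), with 1.69, 0.67 and -0.32 within the slides. It passed the threshold with the percentile taken over detected probes (adjusted p = 0.0462) and with the mean of both probes (adjusted p = 0.0318).

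Cd72 also separated the DB lines from D and from each other. It was higher than in D by 3.18 ± 0.28 in DB#1 (adjusted p = 1.05e-06), where it was the only member called and 0.475% of genes were called, and it ranked 8 among all genes that rose. It was higher by 2.81 ± 0.30 in DB#2 (adjusted p = 2.07e-06) and by 1.38 ± 0.30 in DB#3 (adjusted p = 0.0442, with 0.369% of genes called). The DB#3 difference was near the threshold and was lost when any single array other than M replicates 1 and 2 and D replicate 1 was left out, with an adjusted p from 0.0505 to 0.232, and under most other settings, quantile normalization among them (adjusted p = 0.301). It was lower in DB#3 than in DB#1 by 1.80 ± 0.30 (adjusted p = 0.00538, with 0.229% of genes called) and than in DB#2 by 1.43 ± 0.32 (adjusted p = 0.00978), the latter lost without DB#2 replicate 1 (1.28, adjusted p = 0.0613). Under quantile normalization both were lost, with an adjusted p of 0.304 for DB#2 and a value that rounded to 1 for DB#1. DB#2 and DB#1 were neighbours in the order of levels and their difference of -0.37 was not called (95% confidence interval -0.995 to 0.25). Further neighbours in the order, J365 above DB#1 by 0.70 (adjusted p = 0.0560) and M0 above J365 by 0.30, were not called either.

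Of the 8 genes nearest to Cd72 on its chromosome, a set picked after values were seen, the 5 that could be tested, Rusc2, Tesk1, Ccdc107, Arhgef39 and Car9, differed from M by -0.26 to 0.40 in the 4 lines and none was called. B cell genes were read beside it. Ms4a1, the gene for CD20, was above background on 0 of the 24 arrays, and Cd79b on the 7 myeloid arrays and D replicate 3. The summed linear level of the 10 B cell markers was 0.531 to 0.617 in M and 0.562 to 2.50 in D. It was 0.507 to 0.701 in DB#1, 0.454 to 0.637 in DB#2 and 0.518 to 0.611 in DB#3. Of the 10, 3 to 4 were above background on an M array and 2 to 9 on a D array. The counts were 3 to 5 in DB#1 and 4 to 5 in DB#2 and DB#3. The highest D values were those of replicate 3.

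**Figure D2:**
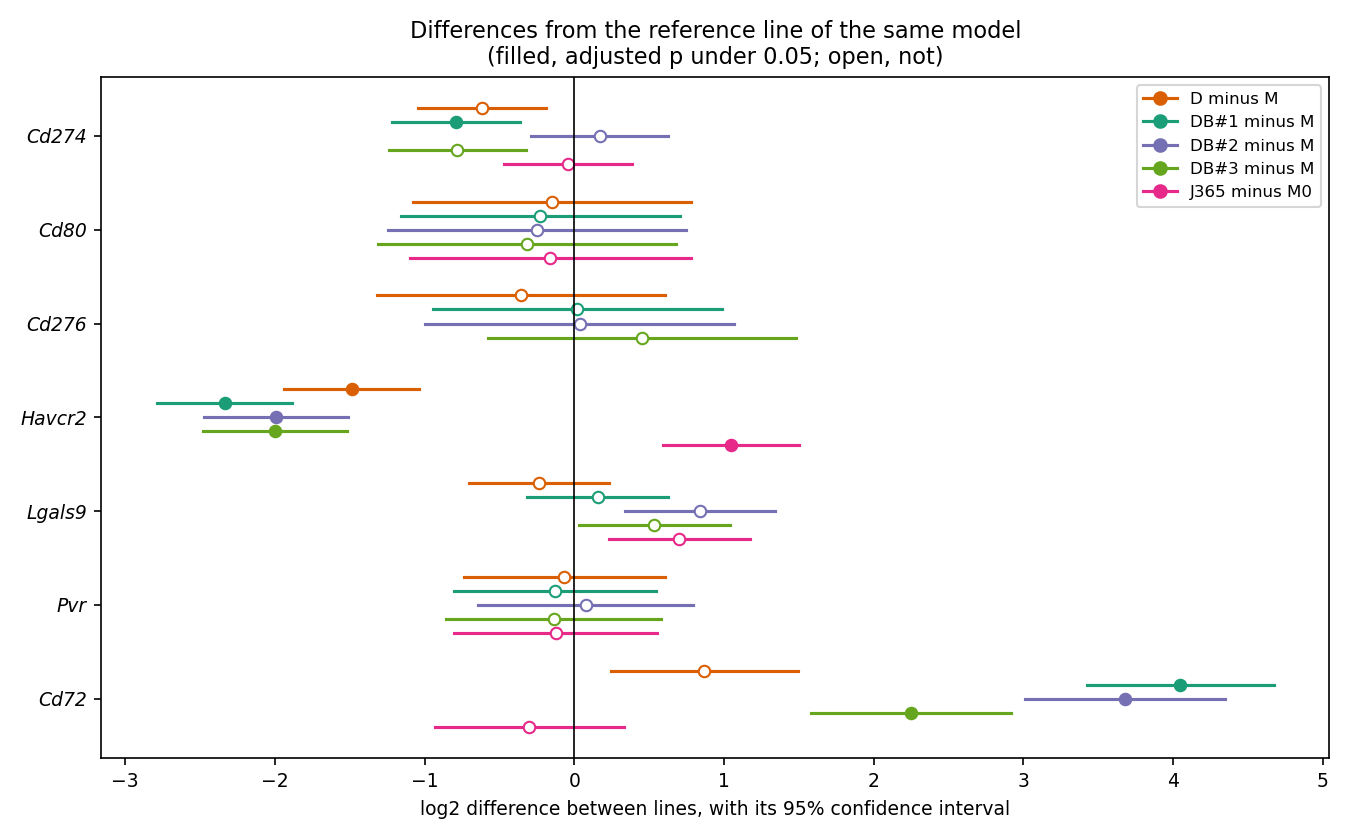
Log2 difference (horizontal axis) of 7 checkpoint genes in D, DB#1, DB#2 and DB#3 from M and in J365 from M0, with 95% confidence intervals as lines and filled points at an adjusted p under 0.05. Cd276 was not tested in J365 minus M0 and has no point there. Havcr2 lies left of 0 in all 4 melanoma comparisons and right of 0 in J365, and Cd72 reaches 4.05 in DB#1. The intervals of Cd80, Cd276 and Pvr include 0, and the Cd80 points all lie left of 0.

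Cd274, the PD-L1 gene, had its highest melanoma means in M (-1.34) and DB#2 (-1.17) and lower means in D (-1.96), DB#1 (-2.13) and DB#3 (-2.12). Its signal was -1.24, -1.41 and -1.37 in M, and -1.24, -2.13, -2.25 and -2.20 in D. It was -2.02, -2.33, -2.21 and -1.95 in DB#1, -1.22, -1.39 and -0.90 in DB#2, and -2.25, -1.94 and -2.17 in DB#3. M and DB#2 overlapped, D replicate 1 lay with them, and the other 10 arrays were at -1.94 or lower. DB#2 was 1.94-fold above DB#1 (0.96 ± 0.21, adjusted p = 0.00662), 1.93-fold above DB#3 (0.95 ± 0.22, adjusted p = 0.0126) and 1.72-fold above D (0.78 ± 0.20, adjusted p = 0.0238). In the last 2 of these comparisons 4.44% and 6.34% of genes were called, and in the first 5.47%. These DB#2 calls depended on DB#2 replicate 3: without it the differences were 0.82 (adjusted p = 0.0604), 0.81 (adjusted p = 0.0922) and 0.65 (adjusted p = 0.157). Under quantile normalization all 3 were lost, with an adjusted p from 0.0826 to 0.435. The difference from DB#3 was also lost without DB#3 replicate 3 (0.88, adjusted p = 0.0711) or 5 (0.93, adjusted p = 0.0555), and the difference from D without D replicate 2, 3 or 4 or DB#2 replicate 1 (adjusted p from 0.0597 to 0.0735). With no filter on dim probes both were lost (adjusted p = 0.0510 for DB#3 and 0.0786 for D), as was the difference from D in a fit of only the arrays compared (adjusted p = 0.374).

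Against M, Cd274 was called only in DB#1 (-0.79 ± 0.20, adjusted p = 0.0322, 3.69% of genes called), and this was lost without any 1 of the 3 M arrays (adjusted p from 0.0880 to 0.130) or without DB#1 replicate 1, 2 or 3 (adjusted p from 0.0532 to 0.109). It was also lost under quantile normalization (adjusted p = 0.604), normexp background correction (0.123), no scaling (0.153), no filter on dim probes (0.119) and a prior taken over all names (0.0595). In D the difference was -0.62 ± 0.20 (adjusted p = 0.138), and it was called without D replicate 1 (-0.86, adjusted p = 0.00248). In DB#3 it was -0.78 ± 0.22 (adjusted p = 0.0657), and it was called without D replicate 1 (adjusted p = 0.00538) or D replicate 3 (adjusted p = 0.0481), which enter that fit only through the common spread. In DB#2 minus M it was 0.17, with a 95% confidence interval from -0.29 to 0.63. Pdcd1lg2, the PD-L2 gene that lies beside Cd274, was not above background on any melanoma array other than D replicate 3 and could not be compared among the melanoma lines. Other near neighbours of Cd274, a set picked after values were seen, were compared with M too. Insl6, an insulin-like gene, fell by 1.02 in D and by 0.85 in DB#1 and was not called in DB#2 (0.21) or DB#3 (-0.56), and Jak2, Rln1, Plgrkt, Ric1, Ermp1 and Mlana were not called in any of the 4 lines.

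Interferon signals reach the Cd274 and Lgals9 genes through receptors, Janus kinases and the STAT and IRF factors, and 27 genes of this route and of other known regulators of Cd274 were considered, 26 of them tested in the melanoma comparisons. Irf9, the DNA-binding part of the interferon-stimulated factor, was 0.83, 0.96 and 1.31 in M, 0.21, 0.54, 0.04 and 0.24 in D, and 1.92, 2.52 and 2.42 in DB#2. DB#2 was the highest of the melanoma lines and did not overlap with them. In a comparison of DB#2 with 1 other melanoma line, 12.6% to 25.9% of all genes tested did not overlap. In DB#2 minus D, 3 of the 26 rose and 0 fell, where 6.34% of all genes were called: Irf9 by 2.03, Stat2 by 1.30 and Ifngr1, a chain of the interferon gamma receptor, by 0.81. The median of the 26 was -0.02, against 0.03 over all genes tested. Without D replicate 3, Cmtm6 (-0.64, adjusted p = 0.0154), Myc (-0.83, adjusted p = 0.0348) and Stub1 (-0.66, adjusted p = 0.0368) were also called lower. Without D replicates 1 and 3 together, only Cmtm6 of these was called (-0.61, adjusted p = 0.0443). In DB#2 minus DB#1, Irf9 (1.79), Stat2 (1.13) and Ifngr1 (0.64) rose and Cmtm6, whose product stabilises PD-L1 protein, fell by 0.71. In DB#2 minus DB#3 Irf9 (2.16) and Stat2 (1.30) rose and Cmtm6 fell by 0.68. Cd274 and Lgals9 had their highest melanoma mean in DB#2 as well, although Cd274 differed from M there by 0.17 and was not called. The Lgals9 promoter shown above holds the interferon-stimulated core and the Cd274 window does not. A part of the interferon route in the level of either gene was not tested.

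In D minus M, 2 of the 26 rose and 3 fell, where 2.97% of all genes were called. Stat2 fell by 1.02 (adjusted p = 0.0136), Ifngr1 by 0.80 (adjusted p = 0.00648) and Irf9 by 0.77 (adjusted p = 0.0184), while Myc rose by 1.04 (adjusted p = 0.0106) and Nlrc5, an activator of class I genes that was above background on only 1 of the 3 M arrays, by 1.24 (adjusted p = 0.0339). Nlrc5 was lost without D replicate 1 (1.15, adjusted p = 0.0658) or D replicate 3 (0.94, adjusted p = 0.0862). Without both arrays only Myc of these 5 genes was still called (1.14, adjusted p = 0.0211), with Stat2 at -0.78, Irf9 at -0.64 and Ifngr1 at -0.58. In DB#1 minus M, Stat2 (-0.85) and Ifngr1 (-0.64) fell and Myc (0.95) rose, and in DB#3 minus M, Stat2 (-1.01) and Irf9 (-0.90) fell and Myc (0.93) rose. DB#2 minus M had 1 call, Irf9, at 1.26 (adjusted p = 2.40e-04).

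**Figure D3:**
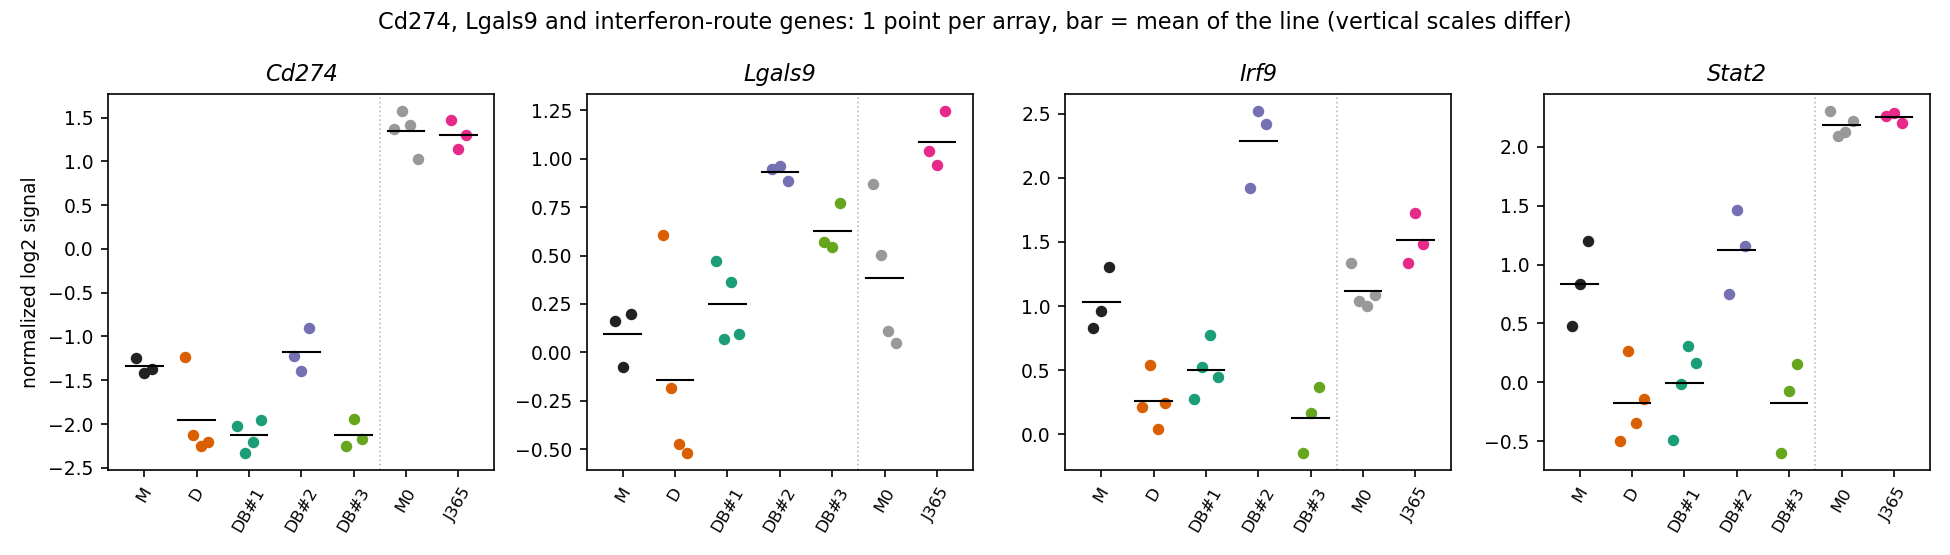
Normalized log2 signal (vertical axis, with its own scale in each panel) of Cd274, Lgals9, Irf9 and Stat2 in the 7 lines (horizontal axis), with 1 point per array and a bar at the mean. In all 4 panels DB#2 has the highest mean of the melanoma lines, and for Irf9 and Lgals9 its arrays are above those of every other melanoma line.

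Cd276, Pvr and Cd80 were tested in every melanoma comparison and not called, and Cd86 and Cd200 were not tested. Cd276 (B7-H3) had line means of -0.37 ± 0.53 in M (SD, n = 3), -0.73 ± 0.76 in D (n = 4), -0.35 ± 0.43 in DB#1 (n = 4), -0.33 ± 0.47 in DB#2 (n = 3) and 0.08 ± 0.52 in DB#3 (n = 3). In each of the 5 lines its lowest array was on slide 1. Its differences from M lay between -0.36 and 0.45, with confidence intervals that reached from -1.32 to 1.48. Pvr (CD155) had means from 3.26 to 3.47 in the 5 lines, and its differences from M lay between -0.14 and 0.08, with confidence intervals that reached from -0.86 to 0.80. Cd80 had means from -2.15 to -1.83, with differences from M between -0.32 and -0.15 and confidence intervals from -1.31 to 0.78. The lowest unadjusted p of these 3 genes over the melanoma comparisons was 0.0946, for Cd276 in DB#3 minus D. Differences within these bounds were not detectable with this number of arrays and this spread between them. The 2 other Cd80 probes were above background on 9 and 3 arrays, and they gave differences of up to 1.84 in D minus M. Cd86 and Cd200 stayed near the lower end of the scale, with line means from -6.55 to -4.79 and from -5.94 to -5.37.

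Counted by comparison, 3 of the 7 members tested were called in DB#1 minus M and in DB#2 minus D, 2 in DB#2 minus M, DB#3 minus M and DB#2 minus DB#3, and 1 in D minus M, DB#1 minus D, DB#3 minus D, DB#1 minus DB#3 and DB#2 minus DB#1. The share called among all genes was 3.44% in DB#2 minus M and 2.76% in DB#3 minus M. With slide as a block the counts were 3 in DB#2 minus M, where 5.31% of all genes were called, and 2 in DB#2 minus DB#1, where 9.33% were, and the others were as before. The median difference was -0.24 over the members tested and -0.01 over all genes in D minus M, and 0.39 and 0.03 in DB#2 minus D. The comparisons among the melanoma lines share arrays and are not independent of each other.

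In the myeloid pair, Havcr2 was the only member called of 7 tested, with 1.47% of 20660 genes called. Its signal was -0.92, -1.06, -1.23 and -0.35 in M0 and 0.02, -0.21 and 0.66 in J365, and the lines did not overlap. These 2 lines did not overlap for 8.49% of all genes tested. The difference, J365 minus M0, was 1.05 ± 0.22 or 2.07-fold higher (adjusted p = 0.0110), and it was lost without J365 replicate 4 (0.80, adjusted p = 0.133) or M0 replicate 3 (0.93, adjusted p = 0.0513), under quantile normalization (adjusted p = 0.0719) and in a fit of these 7 arrays alone (adjusted p = 0.258). The difference between the models, D minus M less J365 minus M0, was -2.53 ± 0.31 for Havcr2 (adjusted p = 2.83e-05), where 2.08% of 23120 genes were called and Havcr2 was the only member called of 8. It had the same direction on all 3 slides (-2.06, -2.88 and -2.90). Without D replicate 1 the difference between the models was also called for Lgals9 (-1.19, adjusted p = 0.0104) and Cd274 (-0.81, adjusted p = 0.0499). The signal of Cd274 was 1.37, 1.58, 1.42 and 1.02 in M0 and 1.47, 1.15 and 1.30 in J365, and the difference of -0.04 had a 95% confidence interval from -0.47 to 0.39. Lgals9 was 0.70 ± 0.23 higher in J365 (adjusted p = 0.191), with no overlap, and passed the threshold without D replicate 1 (adjusted p = 0.0407). Pdcd1lg2 lay between 0.08 and 0.64 in M0 and between 0.82 and 1.45 in J365, and the difference of 0.71 ± 0.51 was not called (adjusted p = 0.873), although it was with normexp background correction (adjusted p = 0.0339). Cd72 (-0.30), Cd80 (-0.16) and Pvr (-0.12) were not called.

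Other immune genes were taken from lists of ligands, receptors, costimulators, class II genes and suppressive enzymes. Of 17 TNF family costimulators, 4 were tested in the melanoma comparisons and 0 were called in any comparison other than M0 minus M, where 6 rose and 2 fell of 8 tested and 58.5% of all genes were called. Tnfsf9 in DB#2 minus D was called without D replicate 3 (-0.75, adjusted p = 0.0333), and not without D replicates 1 and 3 together (-0.71, adjusted p = 0.0895). In the comparisons without a call, 0 to 2 of the costimulators had an unadjusted p under 0.05 in limma's test. Of 27 receptors of T, NK and myeloid cells, 4 or 5 were tested among the melanoma lines and 0 were called by limma, with 0 at an unadjusted p under 0.05. In J365 minus M0, where 1.47% of all genes were called, 2 of the 11 tested rose: Lilrb4a, which encodes an inhibitory receptor of myeloid cells, by 4.35 ± 0.42 (adjusted p = 1.07e-06), and Cd200r2, a receptor of the CD200 family, which was not above background in M0 and was at least 22.7-fold higher. Cd200 itself was above background in neither.

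Of 27 further ligands, 16 to 18 were tested among the melanoma lines, and 0 were called in D minus M, where 3 had an unadjusted p under 0.05 in limma's test. H60b, a stress-induced ligand of the activating NK receptor NKG2D, was above background on all 7 arrays of DB#1 and DB#3 and on none of M and DB#2. It was at least 1.63-fold higher in DB#1 than in M (adjusted p = 6.52e-06), at least 1.60-fold higher in DB#3 than in M (adjusted p = 2.28e-05) and at least 1.83-fold higher in DB#1 than in DB#2 (adjusted p = 4.22e-07). Raet1e, another ligand of NKG2D, was higher in DB#2 than in D by 1.28 (adjusted p = 0.00335), than in DB#1 by 1.08 and than in DB#3 by 1.00. Fgl1 in DB#2 minus D was called only without D replicates 1 and 3 together (0.72, adjusted p = 0.0469). Cadm1, which encodes an adhesion molecule bound by CRTAM on activated lymphocytes, was lower in DB#2 than in M by 0.98, with 2.02, 2.29 and 2.26 against 2.92, 3.19 and 3.41. Lgals3, the galectin-3 gene, was higher in DB#1 than in M by 2.02 (adjusted p = 0.0248) and lower in J365 than in M0, where it fell by 2.78 (adjusted p = 0.00358). It read 4.86 to 5.67 in M and 7.19 to 7.46 in DB#1. The other lines, not called against M, read 6.33 to 8.24 in D, 6.60 to 7.12 in DB#2 and 5.95 to 7.44 in DB#3. Ceacam1, an adhesion molecule and ligand of TIM-3, fell by 1.15 in DB#1 relative to M (adjusted p = 0.0388), with -0.77, -1.08 and -0.47 in M and -2.21 to -1.43 in DB#1. The other lines, not called against M, read -1.99 to -1.84 in DB#2, -1.73 to -1.14 in D and -2.06 to -1.15 in DB#3.

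Of 8 class II genes 1 was tested among the melanoma lines, H2-DMb1, a chain of the H2-DM chaperone that loads peptides. It was -2.56, -3.33 and -2.43 in M, between -1.15 and 0.69 in D, between -0.35 and 0.59 in DB#1, -3.89, -3.32 and -4.16 in DB#2, and between -0.15 and 0.31 in DB#3. It was therefore higher than in M by 2.28 in D (adjusted p = 3.47e-04), 2.83 in DB#1 (adjusted p = 1.53e-05) and 2.88 in DB#3 (adjusted p = 3.74e-05), while DB#2 was 3.29 below D (a difference of -3.29, adjusted p = 1.94e-06). Of 14 suppressive enzymes and cytokines, 3 or 4 were tested, and Tgfb1, the gene for TGF-beta 1, fell by 1.56 in D (adjusted p = 0.0237) and by 2.19 in DB#1 (adjusted p = 8.68e-04). In D, replicate 1 stood at -0.00 for Tgfb1, at the level of M, and the other 3 arrays between -2.39 and -1.94. Without D replicate 1 the difference was -2.11, and without D replicate 3 it was lost (-1.36, adjusted p = 0.0694). Without both it was -2.08. In DB#2 minus D, Tgfb1 was 0.79 higher and not called (adjusted p = 0.284). That difference was called without D replicate 1 (1.34, adjusted p = 2.95e-04) and without both arrays (1.31, adjusted p = 0.00169).

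**Figure D4:**
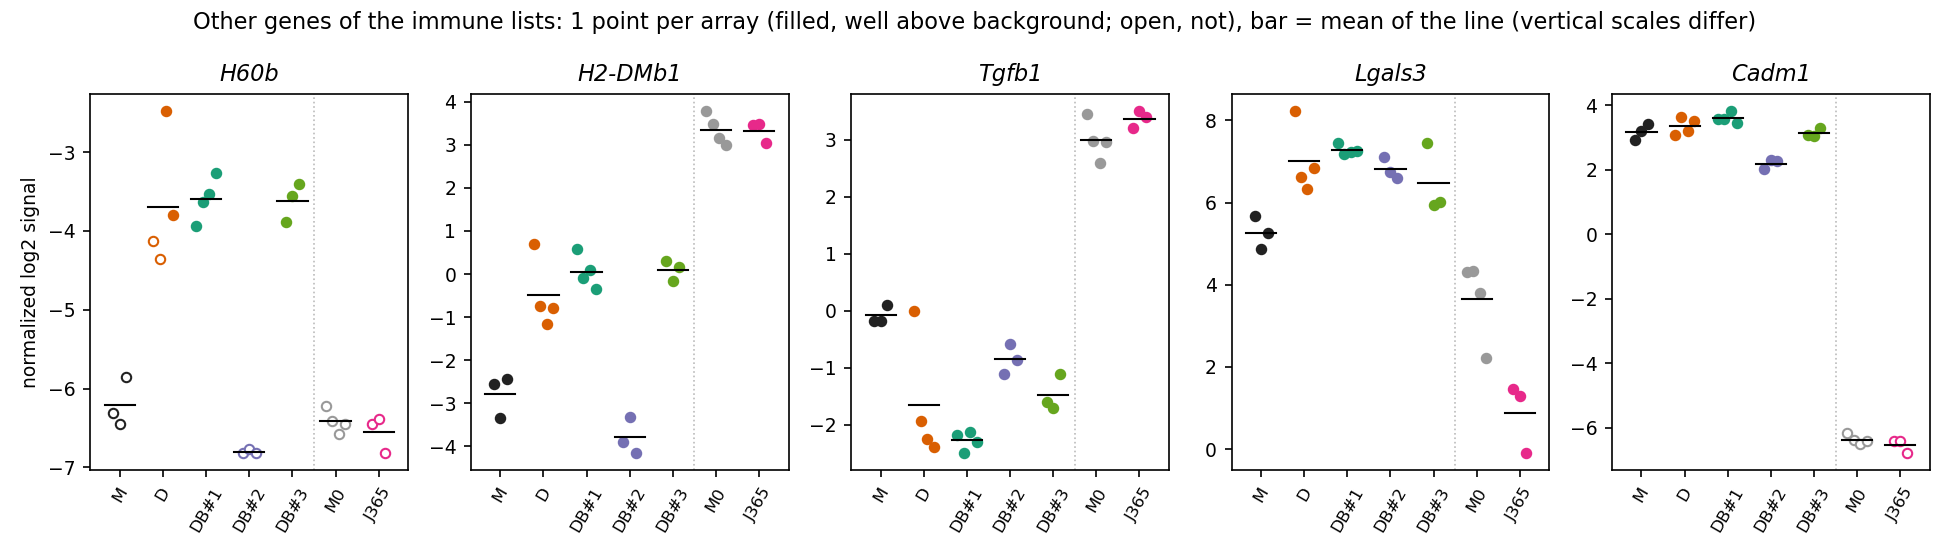
Normalized log2 signal (vertical axis, with its own scale in each panel) of H60b, H2-DMb1, Tgfb1, Lgals3 and Cadm1 in the 7 lines (horizontal axis), with 1 point per array, filled where well above background, and a bar at the mean. H60b and H2-DMb1 are low in M and DB#2 and higher in DB#1 and DB#3, and Cadm1 is lowest among the melanoma lines in DB#2. In D, H2-DMb1 is higher than in M, while H60b has open points for replicates 1 and 2.

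The genes most like each member were found by Pearson's r over the 24 arrays after the mean of its tumour type was removed, among 14312 genes. Arrays of the same line and slide are not independent, so the values are given as a description. For Cd72 they were Crb2 (0.95), Def6 (0.92) and Map7 (0.91), for Havcr2 Cux2 (0.82), Arfgef3 (0.82) and Epb41l5 (0.81), for Cd274 Spaca9 (0.91), S100b (0.91) and Ropn1l (0.90), and for Lgals9 Akr1c13 (0.89), Sdhb (0.88) and Cd81 (0.88). For Pdcd1lg2 they were Slc51a, Ankrd36 and Gm5127 (0.90 to 0.92), for Cd80 Cd22, Mrgprg and Neu2 (0.92 to 0.95), for Cd276 Apoc3, Myo1a and 1700016C15Rik (0.91 to 0.93), and for Pvr Ap4b1, Sra1 and Rsph3b (0.91 to 0.93). Havcr2 and Cd72 had an r of -0.73 on the same scale.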

How the data were processed

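RNA of 24 samples was hybridised to one-colour Agilent arrays with 62976 spots. The deposited values are background-corrected intensities from Feature Extraction 10.7.3.1 per the file headers, and the series table the authors deposited held the same intensity values. The intensities were converted to log2 and the 75th percentile of each array was subtracted. Control spots and 117 probes with outlier flags were left out, which left 56488 probes, and the brightest probe on average stood for a gene. A gene was tested if at least 1 of the compared lines had it well above background on all its arrays. Lines were compared by limma's lmFit and eBayes (limma 3.58.1, R 4.3.3) on all 24 arrays with a term per line, and p-values were adjusted within a comparison by the Benjamini-Hochberg method. Where a gene was not well above background in a line, a bound was formed from the lowest signal well above background on each array. On simulated data for D minus M, 87% of changed genes were recovered at a log2 change of 2 and 57% at 1. The simulated noise was drawn independently for each array, without shared slide effects, so these shares need not hold for the real arrays.

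The members, marker genes and gene lists were chosen with earlier results of these data known. Of the listed genes, 1 is not reported here. All members are named. Of a list, the genes with the largest called rises and falls are named, at most 2 of each, or every called gene where a printed count was 5 or fewer. Alternatives were quantile normalization, normexp with an offset of 50 (run on median signals, since mean signals were not in the columns used here), the percentile over detected probes, no scaling, no filter on dim probes, slide and replicate number as blocks, a fit of only the arrays compared, the mean of a gene's probes and leaving out each array. No array pair held identical values. Unnumbered arrays of M0 and J365 are called replicate 4 as a name only. Figures were drawn with matplotlib 3.10.9.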

Additional observations from a re-analysis of the deposited data

Results flagged for a closer look

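Of 30 groups of 4 arrays tested for a value far from the rest, chance flags about 1 in 20, and 3 were found. Cd274 in D replicate 1 was -1.239, against -2.25 to -2.13 on the other 3 D arrays. Cd86 in D replicate 3 was -2.539, against -6.39 to -5.79 on the others, and that array had the highest share of probes above background. Cd276 in DB#1 replicate 3 was -0.9905, against -0.20 to -0.09 on the others. That array lay on slide 1, where Cd276 was also lowest in M (-0.97), D (-1.72), DB#2 (-0.87) and DB#3 (-0.52). The cause of the low slide 1 values was not tested. The change of Havcr2 differed between the models by -2.53 log2 units (D minus M less J365 minus M0, limma's adjusted p = 2.83e-05), being lower in 4 of 4 D arrays than in M and higher in 3 of 3 J365 arrays than in M0.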

How the results depend on the processing

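Of the calls reported, those of Havcr2 in all 4 lines against M, Cd72 in DB#1 and DB#2 against M and against D, the 7 members in M0 minus M and Havcr2 between the models kept their direction and threshold under all 33 planned and 2 added alternatives, and no difference changed sign past the threshold. Under quantile normalization the number of members called was 1 in DB#3 minus M and 0 in DB#3 minus D, DB#1 minus DB#3, DB#2 minus DB#1, DB#2 minus DB#3 and J365 minus M0. With normexp it was 0 in DB#3 minus D and 2 in J365 minus M0. With the percentile over detected probes it was 2 in D minus M, DB#1 minus D and DB#2 minus DB#1. Without scaling it was 0 in DB#3 minus D and 2 in DB#2 minus DB#1, and without the filter 0 in DB#3 minus D and 1 in DB#2 minus DB#3. A fit of only the arrays compared gave 1 in DB#2 minus D, 0 in DB#3 minus D, 2 in DB#2 minus DB#1 and 0 in J365 minus M0. The mean of a gene's probes gave 2 in D minus M and 0 in DB#3 minus D, and slide as a block gave 2 in DB#2 minus DB#1. Among all genes, slide as a block raised the share called from 2.97% to 5.38% in D minus M, from 3.44% to 5.31% in DB#2 minus M, from 3.69% to 5.62% in DB#1 minus M, from 6.34% to 11.5% in DB#2 minus D, from 5.47% to 9.33% in DB#2 minus DB#1 and from 4.44% to 7.44% in DB#2 minus DB#3. For the other alternatives the share called over all genes was not recorded. A loss of members there cannot be told apart from fewer calls in general. Both added settings were chosen after seeing the data. A prior over all names gave 0 in DB#3 minus D, and leaving out D replicates 1 and 3 together gave 2 in D minus M, DB#3 minus D, DB#2 minus DB#1, J365 minus M0 and the difference between the models. The cause of these changes was not tested.

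Leaving out 1 array at a time gave 1 to 2 members called in D minus M and DB#1 minus D, 2 to 3 in DB#1 minus M, DB#2 minus M, DB#3 minus M and DB#2 minus D, 0 to 2 in DB#3 minus D, DB#2 minus DB#1 and J365 minus M0, 1 in DB#1 minus DB#3, 1 to 2 in DB#2 minus DB#3, 7 in M0 minus M and 1 to 3 between the models.

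Replicate numbers did not pair the arrays: deviations of same-numbered arrays had a mean correlation of 0.078 over 49 pairs, 23 of them over 0.1, while those of arrays on the same slide averaged 0.55. With the replicate block the number of members called was 2 in DB#1 minus D, where Havcr2 was added (adjusted p = 0.0102), and 0 in DB#3 minus D, DB#1 minus DB#3 and DB#2 minus DB#3, where Cd72 had an adjusted p of 0.0682, 0.103 and 0.122. Cd274 was lost in DB#1 minus M (0.0537) and DB#2 minus DB#3 (0.108), and Lgals9 was called in DB#2 minus M (0.0348).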
